A study of Mus musculus with 12 samples.

Results

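The circadian clock gene Arntl, which encodes BMAL1, and 9 genes that act with it or downstream of it (Clock, Npas2, Per1, Per2, Per3, Cry1, Cry2, Nr1d1 and Noct) were described across ChIP-seq peak lists of the Mediator subunits MED1 and MED24 in mouse embryonic stem cells. They are 10 of the 21887 protein-coding genes placed on the mm10 build. For each protein its 4 peak lists were merged wherever peaks overlapped by 1 bp or more, and a merged region belonged to the nearest protein-coding gene span within 100 kb. The 10 genes took 83 of 65291 MED1 regions and 91 of 66123 MED24 regions. The genes were selected on these same values: earlier counts of regions with peaks at 2 h and not at 0 h were known, and Arntl had many. Those counts and ranks are therefore given as a description, with no test.

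The cells were of the E14tg2a embryonic stem cell line (background strain 129SV) and stably carried cRAF-ErT2, a RAF kinase fused to a ligand-binding domain that 4-hydroxytamoxifen (4OHT) switches on, so that 4OHT activates ERK signalling. The 2 h group had received 250 nM 4OHT for 2 h, and the 0 h group was untreated. Both groups carried the transgene. Both had been grown in serum with LIF and 2 µM of the GSK3 inhibitor Chir99021, and then for 24 h in serum with LIF and PD173074 at 250 nM, an inhibitor of FGF receptors. Each group held 1 library of clone a and 1 of clone b for each protein, with MED1 precipitated by its own antibody and MED24 through a FLAG tag, after crosslinking with formaldehyde and disuccinimidyl glutarate. Every 2 h library had both the cassette and 4OHT, and libraries with vehicle or with no cassette were not used here, so effects of 4OHT, of time and of ERK activation cannot be told apart. With 2 clones a group and no read numbers in the lists, depth is unknown and precision is limited by the number of clones.

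The circadian clock is a transcriptional feedback loop. BMAL1 pairs with CLOCK, or with its relative NPAS2, binds E-boxes and activates Per, Cry and Nr1d1 genes, whose PER and CRY proteins then repress that pair, while REV-ERBα, the product of Nr1d1, represses Arntl through ROR elements. Mediator is the complex that carries signals from factors bound at enhancers and promoters to RNA polymerase II, and undifferentiated embryonic stem cells are known to lack a running circadian rhythm.

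Promoter windows of 5 clock gene start sites are shown as the sequence behind the promoter regions described further on. Arntl, Nr1d1 and Noct had promoter regions that stood at a higher percentile in every 2 h library than in any 0 h library. The Per1 window lies in a MED1 region called at 2 h and not at 0 h, and Cry1 is the promoter whose percentiles were closest together across the 4 MED1 libraries; the choice was made with these values seen. The windows come from the RefSeq promoter table of GRCm38.p6, run from 250 bases before to 50 bases after a start site, and are written 5′ to 3′ on the gene's strand. They are chr7:113207261-113207560 (+) for the second Arntl start site, chr11:98775328-98775627 (-) for Nr1d1, chr3:51224197-51224496 (+) for Noct, chr11:69099902-69100201 (+) for the second Per1 start site and chr10:85185005-85185304 (-) for Cry1. Capitals mark matches, on either strand, to the motifs named in the next paragraph.
Arntl: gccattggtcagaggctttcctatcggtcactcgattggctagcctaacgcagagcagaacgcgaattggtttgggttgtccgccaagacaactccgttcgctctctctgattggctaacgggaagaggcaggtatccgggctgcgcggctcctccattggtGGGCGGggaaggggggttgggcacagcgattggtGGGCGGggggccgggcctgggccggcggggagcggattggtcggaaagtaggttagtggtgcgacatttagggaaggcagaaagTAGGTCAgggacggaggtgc
Nr1d1: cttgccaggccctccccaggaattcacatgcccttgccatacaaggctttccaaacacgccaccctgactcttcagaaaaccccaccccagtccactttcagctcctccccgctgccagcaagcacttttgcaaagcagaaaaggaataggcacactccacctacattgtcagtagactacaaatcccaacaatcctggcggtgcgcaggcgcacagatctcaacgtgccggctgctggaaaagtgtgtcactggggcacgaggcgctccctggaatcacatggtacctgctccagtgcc
Noct: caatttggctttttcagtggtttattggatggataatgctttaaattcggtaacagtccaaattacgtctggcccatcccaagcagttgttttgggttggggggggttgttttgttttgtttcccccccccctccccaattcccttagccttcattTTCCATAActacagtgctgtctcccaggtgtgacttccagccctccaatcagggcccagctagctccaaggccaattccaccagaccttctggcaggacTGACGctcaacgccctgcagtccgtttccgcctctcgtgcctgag
Per1: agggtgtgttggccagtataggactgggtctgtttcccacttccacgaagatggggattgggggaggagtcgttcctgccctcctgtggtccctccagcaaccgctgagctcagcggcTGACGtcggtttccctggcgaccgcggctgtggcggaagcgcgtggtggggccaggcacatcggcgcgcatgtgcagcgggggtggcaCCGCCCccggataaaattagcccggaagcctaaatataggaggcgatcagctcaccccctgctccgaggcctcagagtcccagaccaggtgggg
Cry1: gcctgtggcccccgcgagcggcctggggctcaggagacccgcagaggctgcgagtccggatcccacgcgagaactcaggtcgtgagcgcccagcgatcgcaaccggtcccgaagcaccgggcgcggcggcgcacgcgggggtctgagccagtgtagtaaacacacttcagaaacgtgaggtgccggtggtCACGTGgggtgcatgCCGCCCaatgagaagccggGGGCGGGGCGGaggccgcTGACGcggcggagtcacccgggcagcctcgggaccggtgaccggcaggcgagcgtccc

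The 7 motifs searched were the E-box CACGTG, the ROR element core TAGGTCA, the D-box TTATGNAA, the core of the cAMP response element TGACG, the AP-1 site TGANTCA, the ETS site CCGGAAGT and the GC box GGGCGG. Both strands were read. The Arntl window held a ROR element core beginning at position 31, the start site being position 1, and GC boxes beginning 88 and 54 bases before the start site. A ROR element core occurred in 2.61% and a GC box in 35.7% of the 32851 windows of the table. The Noct window held a D-box on the reverse strand beginning 94 bases before the start site, a motif found in 3.38% of all windows, and a TGACG at position 6. In the Per1 window a TGACG began 132 bases before the start site and a GC box 44 bases before it. The Cry1 window held an E-box 60 bases before the start site, a TGACG 8 bases before it and GC boxes at 45, 26 and 21 bases before it, of which the last pair overlap by a base. E-boxes lay in 7.15% and TGACG in 20.8% of all windows. The Nr1d1 window held none of the 7. AP-1 sites (7.81% of all windows) and ETS sites (3.89%) occurred in none of the 5 windows shown. A match is a description of letters and not a bound site.

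The lists held 43949 and 47305 MED1 peaks at 2 h (clones a and b), against 38668 and 37483 in the 0 h libraries. For MED24 they held 42445 and 48931 peaks at 2 h, against 41689 and 38398 in the 0 h libraries. The 2 h lists were thus the longer ones in each clone. Pou5f1, Sox2 and Nanog, genes of the pluripotency network, each had called regions in all 8 libraries. The same held for each of the 10 clock genes, so this is no check of the stem cell label. A region with a peak in each 2 h library and none at 0 h is called gained here. One with a peak in each 0 h library and none at 2 h is called lost, and one with a peak in every library of its protein is called retained. All other combinations are called otherwise.

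By nearest gene, Arntl carried the most Mediator regions of the 10 genes, and more of the gained ones than the other 9 together. Of its 30 MED1 regions, 16 were gained, 1 was lost and 5 were retained, and of its 34 MED24 regions 15 were gained, 2 were lost and 7 were retained. Among all regions of the series, 17.6% of MED1 regions were gained, 6.9% lost and 30.9% retained, and 16% of MED24 regions were gained, 8.83% lost and 32.6% retained. Arntl's shares of gained regions were 53.3% and 44.1%, which is the contrast it was chosen by. By library, MED1 peaks fell in 25 and 28 Arntl regions at 2 h, against 6 and 9 at 0 h. For MED24 the numbers were 26 and 29 at 2 h, against 10 at 0 h in each clone. Every 2 h value was above every 0 h value of its protein, which also held for the numbers of peaks in the whole lists. The lead over the other 9 genes depended on the settings for MED24: Arntl had 10 gained regions against 11 at a score of 100 or more, and 9 against 9 within 20 kb. When every region within 100 kb counted, nearest or not, Arntl had 16 gained MED1 and 15 gained MED24 regions against 21 for each protein at the others.

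The Arntl peaks called at 2 h also covered more bases. MED1 peaks covered 19.8 and 20.2 kb at 2 h, against 4.07 and 4.24 kb at 0 h, made of 27 and 29 peaks at 2 h, against 8 and 10 at 0 h. MED24 peaks covered 17.2 and 20.3 kb at 2 h, against 5.58 and 4.96 kb at 0 h, made of 28 and 31 peaks at 2 h, against 11 and 12 at 0 h. The 2 h and 0 h libraries did not overlap in covered bases or in number of peaks. The whole lists did not overlap in number of peaks either. Whole MED1 lists covered 24.9 and 27.4 Mb at 2 h, against 23.7 and 22.9 Mb at 0 h, without overlap. Whole MED24 lists covered 22.4 and 26.6 Mb at 2 h, against 22.8 and 20.8 Mb at 0 h, with overlap. The best MED1 score at Arntl was 3463 and 4005 at 2 h, against 253 and 190 at 0 h, and the best MED24 score was 4280 and 4841 at 2 h, against 758 and 546 at 0 h. The score is the authors' own value per peak, which in the MED1 lists equals 10 times the −log10 q-value rounded down, and scores, fold enrichments and covered lengths depend on the depth of each library, which is unknown, so they are set side by side only as a description.

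**Figure D1:**
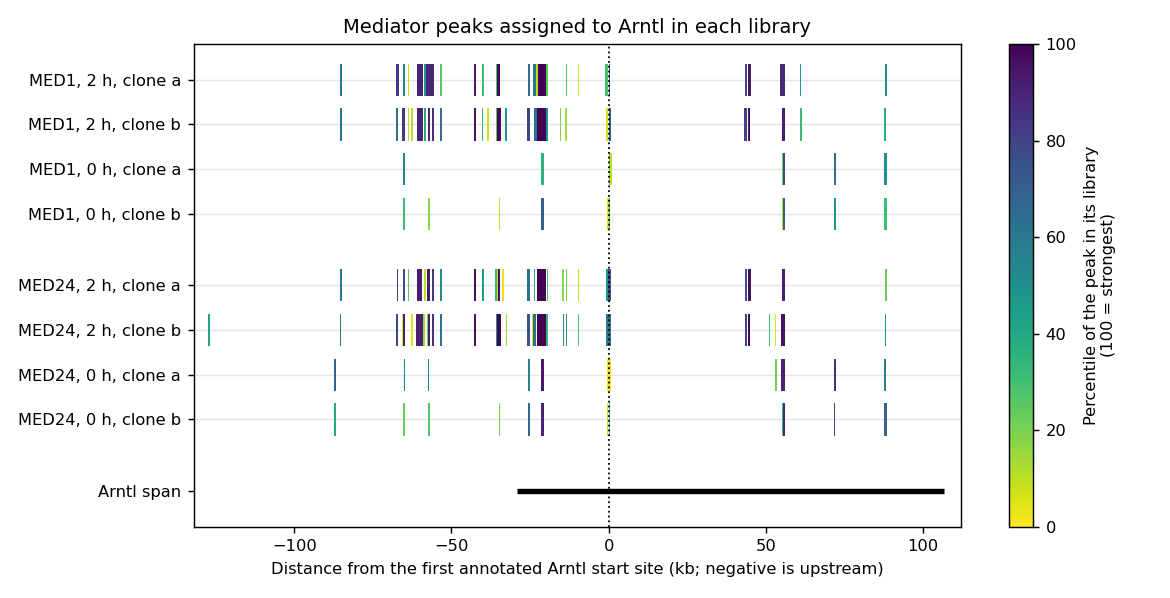
Peaks assigned to Arntl in each of the 8 libraries, by distance in kb from the first annotated start site (dotted line), coloured by the percentile of the peak in its own list, with the RefSeq gene span as a bar. The 2 h libraries hold 27 to 31 peaks each and the 0 h libraries 8 to 12, and peaks at 2 h crowd between the upstream end of the map and the start site.

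Most Arntl regions of any class, and most of the gained ones, lay before the annotated start site. The RefSeq span of Arntl is chr7:113178471-113314126, on the plus strand, and the first start site of the promoter table is at position 113207465, inside the span. Upstream of the span lay 10 of the 16 gained MED1 regions, 3 lay between the start of the span and that start site, and 3 lay after it. For MED24 the 15 gained regions were divided as 8, 5 and 2. All 30 MED1 regions of Arntl were divided as 16, 7 and 7, and all 34 MED24 regions as 18, 8 and 8. The position is therefore not particular to the gained regions. The only MED1 region lost at Arntl, chr7:113279182-113279576, lay after the start site. Other transcribed units share the stretch: 2 gained MED1 regions overlapped the lncRNA 4930543E12Rik, 2 overlapped Gm33659 and 2 overlapped Gm33721, which lies within Arntl. Assignment to Arntl follows distance, and contact of a region with the Arntl promoter was not measured.

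The strongest gained regions at Arntl were called for both proteins. Rank is given as a percentile, the place of a region's best peak in its own library's list (by −log10 p for MED1 and by score for MED24), with 100 for the strongest peak. The region chr7:113251809-113252662, in the gene body 44.8 kb after the start site, stood at percentiles 94.0 and 96.2 of the MED1 lists at 2 h (clones a and b) and had no 0 h peak, and the authors' fold enrichment there was 14.9 and 19.8. The matching MED24 region, chr7:113251936-113252631, stood at 96.8 and 97.8 at 2 h. Both clones thus ranked it close to the top of the list for both proteins.

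Upstream, the region chr7:113164660-113165341, 42.5 kb before the start site, stood at 92.3 and 94.4 for MED1 at 2 h, and its MED24 counterpart chr7:113164632-113165330 at 95.5 and 95.0. The region chr7:113146367-113148479, 60.0 kb before the start site and the widest gained one, stood at 90.2 and 90.01 for MED1 and, as chr7:113146277-113148282, at 92.3 and 91.2 for MED24. Close to it, chr7:113150719-113151948 stood at 89.2 and 87.4 for MED1, and chr7:113151403-113151980 at 84.4 and 86.2 for MED24. None of these 3 had a peak in any 0 h library of its protein. A second gene body region, chr7:113250628-113251583, stood at 79.7 and 80.6 for MED1, and the fifth MED24 region by rank, chr7:113139987-113140574, at 80.8 and 77.9.

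The remaining gained regions ran well below these. Over the 16 gained MED1 regions the mean 2 h percentile ran between 11.2 and 95.1 with a median of 53.4, against a median of 53.3 over all gained MED1 regions of the series. Above the 75th percentile were 5 of the 16, against 24.4% in the series. For MED24 the median was 56.8 over 15 regions, against 48.9 in the series, and 6 of 15 were above the 75th percentile, against 22.0%. Gained Arntl regions had a median width of 659.5 bp for MED1 and 578 bp for MED24, against 427 and 423 bp in the series.

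MED1 and MED24 marked largely the same gained places at Arntl. Of the 16 gained MED1 regions, 12 overlapped a gained MED24 region, 1 a retained one, 2 a region called otherwise and 1 none. Of the 15 gained MED24 regions, 12 overlapped a gained MED1 region. In the series, 62% of gained MED1 regions overlapped a gained MED24 region and 67.6% of gained MED24 regions a gained MED1 region. The lost region after the start site was lost for both proteins, with 0 h percentiles of 65.2 and 47.7 for MED1 and of 86.5 and 78.2 for MED24 (chr7:113279136-113279667). The other lost MED24 region, chr7:113120117-113120467, stood at 70.1 and 38.7 at 0 h and had no MED1 counterpart.

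Regions already called at 0 h included the strongest of the locus. The retained MED1 region chr7:113183559-113187478, in the span 21.9 kb before the start site, stood at percentiles 99.9 and 99.96 at 2 h, against 35.9 and 70.8 at 0 h. Its authors' fold enrichment was 31.3 and 42.5 at 2 h, against 3.36 and 7.53 at 0 h. The MED24 region chr7:113184632-113187465 stood at 99.9 and 99.97 at 2 h, against 93.7 and 90.3 at 0 h. Both 2 h libraries were above both 0 h libraries for each protein, with the wider gap for MED1. The MED1 region was named for its large shift in both clones, so its gap follows in part from that choice. A neighbouring region, chr7:113172001-113173101, just missed the gained class: its MED1 percentiles were 98.6 and 98.8 at 2 h, against no peak in clone a and 9.6 in clone b at 0 h. Its MED24 percentiles were 98.7 and 99.2 at 2 h, against no peak in clone a and 19.7 in clone b at 0 h.

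The Arntl promoter itself had Mediator peaks at both times. The MED1 region chr7:113207430-113208170 stood at percentiles 65.1 and 66.8 at 2 h, against 21.9 and 30.7 at 0 h, and the MED24 region chr7:113206666-113208349 at 74.9 and 60.5 at 2 h, against 1.64 and 27.7 at 0 h. The groups did not overlap for either protein. Another retained MED24 region, chr7:113149660-113150624, stood at 92.5 and 93.3 at 2 h, against 56.4 and 27.3 at 0 h. This region and the MED1 promoter region were named for their large shifts in both clones. Their lack of overlap therefore follows in part from that choice. Over the retained Arntl regions, the percentile was higher at 2 h in both clones in 4 of 5 for MED1 and in 5 of 7 for MED24, and lower in both clones in 0 of 5 and 1 of 7. In the series, 24.3% of retained MED1 regions were higher at 2 h in both clones and 44.2% lower, and 34.4% of retained MED24 regions were higher and 36.8% lower. The mean shift at Arntl (2 h minus 0 h within a clone) was 26.3 percentile points over 5 MED1 regions and 20.2 over 7 MED24 regions, against -2.97 and -0.243 over all retained regions.

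Across the other 9 genes the gained share was near that of the series. Of their 53 MED1 regions, 11 were gained (20.8%) and 5 lost (9.43%), and of their 57 MED24 regions, 11 were gained (19.3%) and 5 lost (8.77%). The spread among genes was wide, with most of the gained regions at Noct and Npas2. Clock, Cry1 and Cry2 had more lost than gained regions, on small counts. Per2 had a single region, retained for both proteins. Of their gained regions, 7 of 11 overlapped a gained region of the other protein in either direction. Their gained counts depended on the choice of peaks and regions, with 3 MED1 and 5 MED24 regions when the 10000 best scored peaks of each library were kept and 21 for each protein when every region within 100 kb counted, nearest or not.

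**Figure D2:**
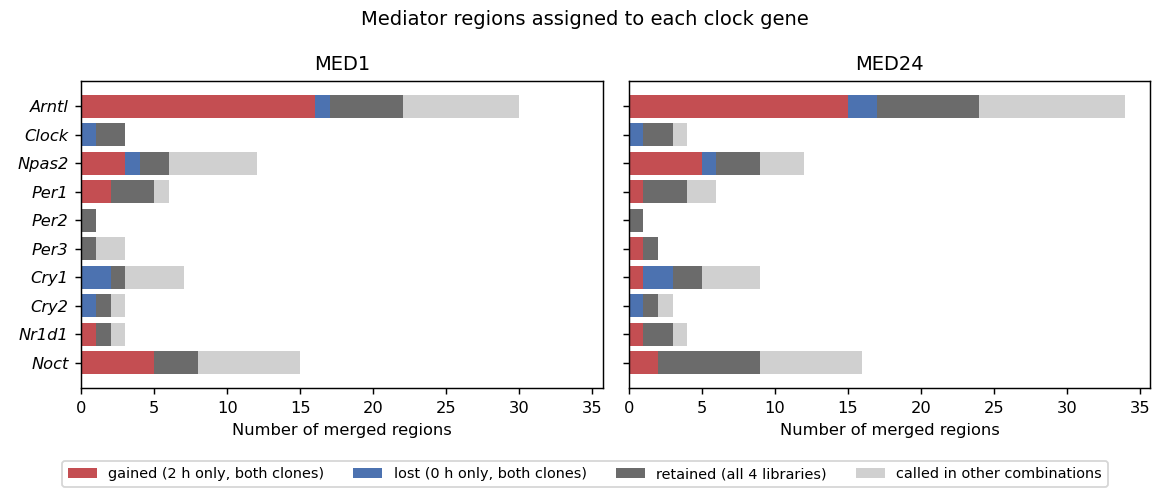
Number of merged regions assigned to each of the 10 clock genes for MED1 (left) and MED24 (right), split into those gained, lost, retained and called in other combinations of the 4 libraries. Arntl has 16 of 30 MED1 and 15 of 34 MED24 regions gained, and no other gene has more than 5 gained regions.

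Clock and Npas2 encode the partners of BMAL1, and their regions were unlike each other. Clock had no gained region: of 3 MED1 regions 2 were retained and 1 was lost, and of 4 MED24 regions 2 were retained and 1 was lost. The lost region, chr5:76288279-76288868 for MED1, stood at percentiles 62.8 and 34.2 at 0 h, and as chr5:76288213-76288920 at 82.1 and 69.1 for MED24. The promoter region of Clock, chr5:76303670-76305469, stood at 88.3 and 86.8 at 2 h, against 92.7 and 90.04 at 0 h, for MED1. For MED24 (chr5:76303869-76305435) it stood at 48.0 and 59.1 at 2 h, against 74.8 and 65.9 at 0 h. Both 2 h values were below both 0 h values for each protein.

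Npas2 had 3 gained and 1 lost of 12 MED1 regions and 5 gained and 1 lost of 12 MED24 regions. Its best ranked gained region, chr1:39256361-39257210, in the gene body 62.5 kb after the start site, stood at 89.4 and 95.9 for MED1 at 2 h, and at 77.3 and 86.1 for MED24 (chr1:39256479-39257195). All 2 retained MED1 and all 3 retained MED24 regions of Npas2 stood lower at 2 h in both clones. The region chr1:39348987-39349370 had MED1 percentiles of 37.1 and 22.5 at 2 h, against 49.5 and 31.5 at 0 h, lower in each clone although the groups overlapped. The upstream MED24 region chr1:39122666-39123188 stood at 39.0 and 57.6 at 2 h, against 83.1 and 84.7 at 0 h, with no overlap. Both of these regions were named for their large falls in both clones, so the lack of overlap follows in part from that choice. The lost region chr1:39237605-39238010 stood at 37.5 and 47.7 for MED1 at 0 h and, as chr1:39237616-39237938, at 4.28 and 4.37 for MED24.

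Among the Per genes, whose products repress BMAL1 and its partner, Per1 alone had a MED1 region gained. Per1 had 2 gained, 0 lost and 3 retained of 6 MED1 regions and 1 gained, 0 lost and 3 retained of 6 MED24 regions. The region chr11:69102316-69102700, in the gene 3.56 kb after the first start site, stood at 83.3 and 79.0 for MED1 at 2 h, and its MED24 counterpart chr11:69102360-69102626 at 33.9 and 8.34. The second gained MED1 region, chr11:69099857-69100256, covers the printed Per1 window and stood at 16.4 and 13.1 at 2 h. For MED24 the overlapping region chr11:69099878-69100332 stood at 55.1 and 76.6 at 2 h, against no peak in clone a and 4.37 in clone b at 0 h, so it was not gained by the rule. Upstream of the first start site, the retained MED24 region chr11:69094688-69095594 stood at 85.2 and 91.7 at 2 h, against 48.1 and 62.7 at 0 h, and the MED1 region chr11:69094605-69095261 at 59.2 and 46.6 at 2 h, against 30.9 and 30.2 at 0 h.

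Per2 had its one region at the end of the span with the higher coordinate, chr1:91459125-91459833 for MED1, at percentiles 22.0 and 38.5 at 2 h, against 29.5 and 23.1 at 0 h. For MED24 (chr1:91459252-91459857) the percentiles were 39.6 and 63.6 at 2 h, against 52.5 and 50.3 at 0 h. The clones moved in opposite directions and the groups overlapped. The promoter region of Per3, chr4:151044435-151045167, which is as near to Gm38529, stood at 16.7 and 39.5 for MED1 at 2 h, against 53.8 and 47.7 at 0 h. For MED24 (chr4:151044342-151045218) it stood at 64.9 and 67.1 at 2 h, against 57.4 and 53.9 at 0 h, so the proteins differed in direction there. The MED1 region was named for its large fall in both clones. The 1 gained Per3 region, chr4:150995256-150995566, was gained for MED24 at 30.9 and 31.2, while MED1 had a peak there in clone b only.

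At Cry1 and Cry2, the genes of the other repressor family, lost regions outnumbered gained ones when all peaks were kept, on small counts. Cry1 had 0 gained and 2 lost of 7 MED1 regions and 1 gained and 2 lost of 9 MED24 regions. Cry2 had 0 gained and 1 lost of 3 regions for each protein. At a score of 100 or more, or with the 20000 or 10000 best scored peaks of each library, Cry1 had 0 lost regions for each protein. Under these settings Cry2 kept 1 lost region for each protein, or 0 with 10000 peaks. In the series 6.9% of MED1 and 8.83% of MED24 regions were lost. The best ranked lost region of the Cry genes was in Cry2, chr2:92424185-92425227, at 52.2 and 69.6 for MED1 at 0 h and, as chr2:92424277-92425436, at 66.1 and 78.2 for MED24. The best ranked lost MED1 region of Cry1, chr10:85205358-85205781, stood at 50.7 and 44.9 at 0 h, and the best ranked lost MED24 region, chr10:85197556-85197893, at 2.98 and 26.6. The gained MED24 region of Cry1, chr10:85167570-85167930, stood at 47.0 and 43.1 at 2 h.

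Promoter regions of the Cry genes were retained and showed no common direction. The Cry1 promoter region, chr10:85184476-85186212, stood at 90.5 and 87.5 for MED1 at 2 h, against 93.1 and 91.7 at 0 h. For MED24 (chr10:85184582-85185771) it stood at 89.96 and 84.2 at 2 h, against 83.3 and 88.3 at 0 h, and the clones differed in direction. The Cry2 promoter region, chr2:92433464-92434448, stood at 49.8 and 68.3 for MED1 at 2 h, against 60.0 and 57.6 at 0 h, again with overlapping groups. For MED24 (chr2:92433666-92434513) it stood at 22.0 and 30.0 at 2 h, against 21.7 and 45.3 at 0 h.

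Nr1d1, whose product REV-ERBα represses Arntl, had a promoter region near the top of the 2 h lists. The MED1 region chr11:98774836-98776862 stood at percentiles 97.2 and 97.7 at 2 h, against 73.0 and 75.7 at 0 h, with a fold enrichment of 19.9 and 20.1 at 2 h, against 7.51 and 7.56 at 0 h. The MED24 region chr11:98775045-98776552 stood at 97.7 in both clones at 2 h, against 53.1 and 79.6 at 0 h. All 2 h values lay above all 0 h values. The MED1 region was named for its large shift in both clones, so its lack of overlap follows in part from that choice. Immediately upstream, chr11:98776951-98777283 was gained for MED1 at 28.4 and 20.2, and chr11:98776751-98777306 was gained for MED24 at 51.5 and 50.9. The gene is short and lies among many others: 33 of the 36 MED1 regions within 100 kb of it were nearer to another gene.

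Noct encodes Nocturnin, an enzyme that removes a phosphate from NADP(H) and whose mRNA is rhythmic in many tissues. It had 5 gained, 0 lost and 3 retained of 15 MED1 regions and 2 gained, 0 lost and 7 retained of 16 MED24 regions. Its strongest region lay 29.2 kb before the start site. It was gained for MED1 (chr3:51194057-51196511), at percentiles 98.7 and 99.5 at 2 h with a fold enrichment of 15.5 and 35.4. For MED24 the same stretch held a gained region, chr3:51194122-51194766, at 81.5 and 88.2, and a retained one, chr3:51195133-51196309, at 98.1 and 99.3 at 2 h, against 1.64 and 1.04 at 0 h. The retained class thus held a region that stood near the bottom of both 0 h lists and near the top of both 2 h lists. That region was named for its large shift in both clones, so the contrast follows in part from that choice.

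A further Noct region followed the same order: chr3:51209863-51210457 stood at 81.2 and 62.7 for MED24 at 2 h, against 10.7 and 14.6 at 0 h, and the overlapping MED1 region was gained. The promoter region chr3:51222327-51225661 stood at 94.8 and 96.8 for MED1 at 2 h, against 72.3 and 86.1 at 0 h, and chr3:51222394-51225527 at 97.5 and 98.5 for MED24 at 2 h, against 61.4 and 67.6 at 0 h. Other Noct regions stood lower at 2 h. The distant region chr3:51128136-51129264, 95.7 kb before the start site, stood at 42.1 and 69.5 for MED1 at 2 h, against 88.3 and 84.5 at 0 h. For MED24 (chr3:51128288-51129479) it stood at 22.0 and 60.5 at 2 h, against 94.5 and 90.3 at 0 h. The MED24 region chr3:51215725-51216196, with no MED1 counterpart, stood at 15.6 and 8.34 at 2 h, against 53.8 and 46.5 at 0 h. None of these pairs of groups overlapped. Except for the promoter region, the regions of this paragraph were named for their large shifts in both clones. Their lack of overlap therefore follows in part from that choice.

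Taking the 10 genes as one set, 27 of 83 MED1 regions were gained (32.5%) and 6 were lost (7.23%), and 26 of 91 MED24 regions were gained (28.6%) and 7 were lost (7.69%). The series had 17.6% of MED1 and 16% of MED24 regions gained, and 6.9% and 8.83% lost. Without Arntl the gained shares of the set were 20.8% and 19.3%. Counted by gene, 5 had more gained than lost MED1 regions, 3 had more lost and 2 had as many of each, and for MED24 the numbers were 6, 3 and 1. More regions were gained than lost in the series as well, and the shares over all genes are not given here. The lost counts moved when a library was left out: leaving out the clone a 0 h library gave 11 lost MED1 regions, and leaving out the clone b 0 h library gave 11 lost MED24 regions. Counted within each clone and averaged (the replicate block), 12.5 MED1 and 13 MED24 regions were lost. With only the 10000 best scored peaks of each library, 2 MED1 and 3 MED24 regions were lost and Arntl had 8 gained MED1 and 7 gained MED24 regions. With 20000, Arntl had 12 and 9 gained regions, and with only regions within 20 kb of the span it had 9 for each protein.

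Over the 20 retained MED1 regions of the 10 genes, 7 stood higher at 2 h in both clones, 7 stood lower in both and 6 differed between clones, with a mean shift of 6.13 percentile points and a median of 2.84. For MED24, 15 of 29 stood higher in both clones and 8 lower in both, with a mean shift of 10.2 and a median of 3.81. Without Arntl the mean shift was -0.577 over 15 MED1 regions and 7.02 over 22 MED24 regions, so for MED1 the positive mean of the set rested on Arntl. Leaving out the clone a 0 h library moved the MED1 mean to 14.6. With the 10000 best scored peaks of each library it was -21.2. In those shortened lists percentiles were ranked anew, and only regions still called in all 4 libraries were averaged. That mean thus covers fewer regions on another scale, and is not a reversal at the same 20 regions. Under that last setting the MED24 mean was 0.381.

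**Figure D3:**
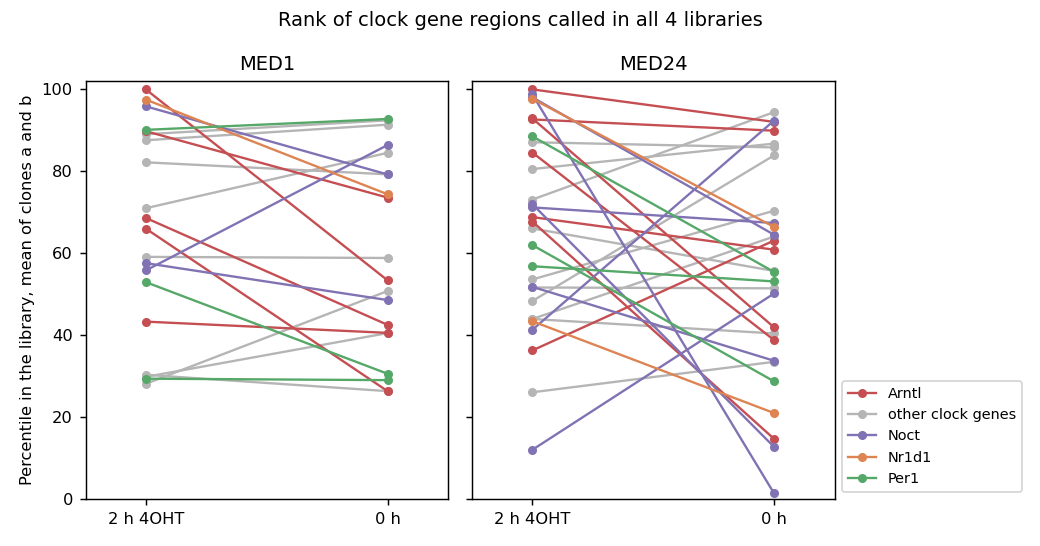
Percentile of each retained clock gene region at 2 h and at 0 h, as the mean of clones a and b, for MED1 (left, 20 regions) and MED24 (right, 29 regions). Each line is a region, coloured by gene; the red Arntl lines are higher at their 2 h end except for 1 MED24 region, and Noct lines run in both directions.

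Over annotated promoter windows, 10 regions per protein lay at 9 of the genes, and 7 of these were retained, 1 was gained and 2 were called otherwise for each protein. The gained ones were the Per1 region for MED1 and, for MED24, a region at the Npas2 start site, chr1:39193946-39194254, at percentiles 15.6 and 17.1 at 2 h. None was lost. Promoter regions in which all 2 h values were above all 0 h values for both proteins were those of Arntl, Nr1d1 and Noct, and that of Clock had all 2 h values below. The shares of all promoter regions with these classes or with such a separation are not given here. By the looser measure of direction within each clone, 24.3% of all retained MED1 regions were higher at 2 h in both clones and 44.2% lower. For MED24 the shares were 34.4% and 36.8%.

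A list of 20 other clock genes, which includes further E-box repressors, ROR receptors, D-box factors and the kinases and ligases that act on PER and CRY, had 91 MED1 and 100 MED24 regions. Of these, 18 MED1 regions were gained (19.8%) and 7 lost (7.69%), and 13 MED24 regions were gained (13%) and 13 lost (13%). The gained shares were near those of the series, 17.6% for MED1 and 16% for MED24. Lost regions made up 6.9% and 8.83% of the series. Without the clone a 2 h library 24 MED24 regions were gained, and within clones (the replicate block) the average was also 24. With the 20000 best scored peaks of each library 8 MED1 and 7 MED24 regions were gained, and with 10000 the counts were 6 and 2. When every region within 100 kb counted they were 48 and 41. Among the highest counts of gained minus lost regions was that of Bhlhe40, the gene of an E-box repressor, with 4 gained and 1 lost of 20 MED1 regions and 2 gained and 1 lost of 20 MED24 regions. Rora, Csnk1d, which encodes a kinase of PER proteins, and Btrc, which encodes a ubiquitin ligase subunit, followed with equal counts. Nr1d2, Dbp, Hlf, Timeless, Arntl2 and Usp2 had more lost than gained regions over both proteins, with 0 gained regions each. Rorb had no MED1 region.

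Among the 158 genes with at least 20 regions for each protein, Arntl had the second highest share of gained MED1 regions, 53.3%, after Etv6 with 55%, and the highest share of gained MED24 regions, 44.1%. Arntl was chosen for its many gained regions, so a high place by this measure follows from that choice. The medians over those genes were 17.8% for MED1 and 14.3% for MED24. Likeness to Arntl was measured as the Euclidean distance of the shares of gained and lost regions for both proteins. The nearest genes were Tenm4 at 17.2 percentage points, with 12 of 32 MED1 and 12 of 30 MED24 regions gained, Camta1 at 17.8, Myo1e at 18.0, Med13l at 18.6 and Map4k3 at 19.1. Tenm4, the nearest by this distance, had a gained MED1 share of 37.5%, and Myo1e one of 45.8%. Etv6, with the higher MED1 share, lay just beyond these 5 at a distance of 19.12.

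**Figure D4:**
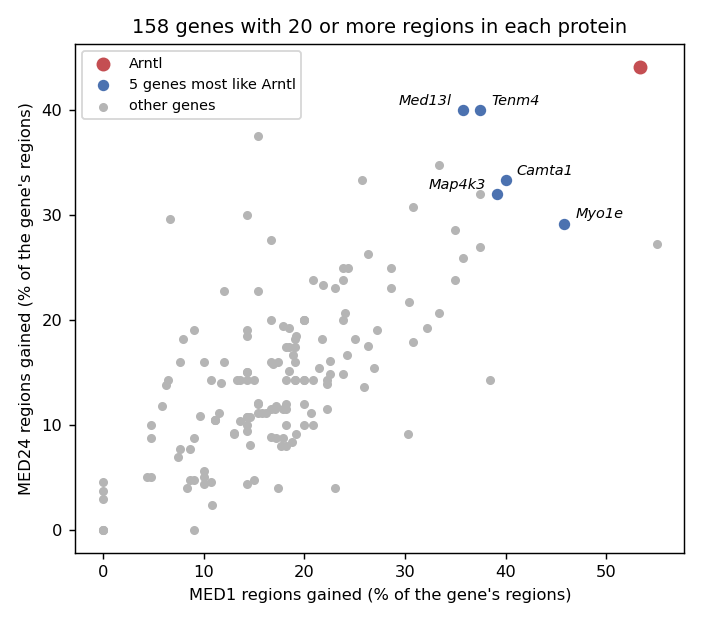
Share of regions gained for MED1 (horizontal axis) and for MED24 (vertical axis), in percent, for the 158 genes with 20 or more regions in each protein. Arntl (red), chosen for its many gained regions, stands alone at the upper right at 53.3% and 44.1%. The 5 genes most like it (blue) have 35.7% to 45.8% of MED1 regions gained.

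The gained regions around Arntl were denser than in the flanking chromosome. Within 1 Mb of the start site, the bins of 100 kb on either side of it together held 30 MED1 regions, of which 16 were gained (53.3%), and the bins beyond held 57, of which 17 were gained (29.8%). For MED24 the inner bins held 33 regions with 15 gained (45.5%) and the outer bins 63 with 17 gained (27.0%). In the series 17.6% of MED1 and 16% of MED24 regions were gained, so the outer bins also stood above the series. The inner bins hold gained regions that Arntl was chosen by, so their higher share follows in part from that choice. The bin just upstream of the start site alone held 13 gained regions for each protein. The other coding genes within 1 Mb had 18 gained regions for each protein. Tead1 had 4 gained and 1 lost of 19 MED1 and of 23 MED24 regions, Far1 had 3 gained and 1 lost of 9 MED1 and of 7 MED24 regions, and Micalcl had 3 gained of 4 regions for each protein. Mical2, Parva, Rassf10, Pth, Rras2, Copb1 and Psma1 had between 0 and 2 gained regions for each protein. Btbd10, which begins 1.505 kb after the end of Arntl, had 0 gained and 0 lost of 2 regions for each protein, and Spon1 had 0 gained and 2 lost of 4 MED1 regions. With only the 10000 best scored peaks of each library, these other genes held 3 gained MED1 and 5 gained MED24 regions.

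**Figure D5:**
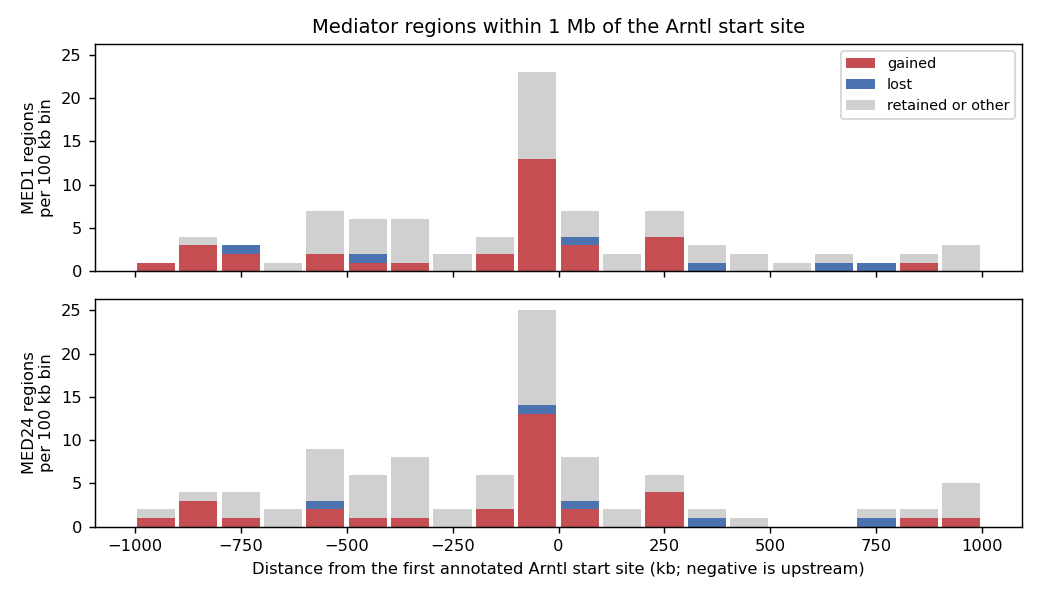
Number of MED1 (top) and MED24 (bottom) regions in bins of 100 kb within 1 Mb of the first Arntl start site, by distance in kb, split into gained, lost and all others. The bin just upstream of the start site is the tallest for both proteins, with 13 gained of 23 MED1 and 13 gained of 25 MED24 regions.

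The farthest regions inside the limit of 100 kb lay 96.6 kb from Noct for MED1 and 98.1 kb from Arntl for MED24. The nearest outside it lay 101.9 kb from Noct for MED1 and 101.6 kb from Per3 for MED24. Regions of a gene share its libraries and neighbourhood and are not replicates of a time point, and the spread shown is that between 2 clones.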

How the data were processed

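ChIP-seq peak lists of 8 libraries were used: MED1 and MED24, clones a and b, at 2 h and 0 h of 4OHT; the 4 inputs are not analysed here. Bowtie2, MACS2, bedtools and the mm10 build are named in the submitters' processing notes; their versions and settings, and how inputs were used, were not given in the sources used here. Each library has its own peak list: peaks were called per library and not on pooled samples, as the deposited lists show. For MED1 the authors deposited a score, a fold enrichment (a ratio), the −log10 of the p-value and of the q-value, and a summit for each peak; the score was 10 times −log10 q rounded down in 100% of peaks. For MED24 the authors deposited a score only, read here as the same quantity, which those lists do not state; their peak names carry FLAG and the folder name EP300, and the labels (MED24) were followed. The lowest score was 20 in each list. All such values are the authors' own and were used to order or select peaks inside 1 list; where set side by side, they are a description. Read numbers are not part of the lists, so the depth is unknown and no counting interval could be given.

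Peaks were merged per protein at an overlap of 1 bp or more, assigned to the nearest of 21887 protein-coding gene spans within 100 kb (RefSeq, GRCm38.p6, the assembly mm10 stands for; a tie counts for every gene), and classed by the libraries that call them, with Python 3.11.15, pandas 2.3.3, numpy 2.4.6, matplotlib 3.10.9 and bedtools 2.31.1. Percentiles are ranks within a library's list. The code was tested on simulated data and against bedtools. No p-value was computed. RefSeq promoter windows were matched by symbol for 9 of the 10 genes. Per2 is named only.

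The members, the list of other clock genes and the rule for named genes were chosen with earlier results of these data known. Named are all members; other clock genes with the 4 largest counts of gained minus lost regions over both proteins (ties included) or with more lost than gained (1 gene that the rule names is not reported here); coding genes within 1 Mb of Arntl; the 5 genes most like Arntl; and regions best ranked in their class or with the largest shift in both clones. The near miss at Arntl, Per1, Per2, Per3 and Cry gene regions outside that rule, Etv6, Pou5f1, Sox2, Nanog and the sequences shown were chosen after their values were seen. Libraries with the same clone letter come from the same clone, per the labels; the correlation of the clones' deviations over all retained regions was -0.00589 for MED1 and -0.00759 for MED24. Alternatives were the overlap, summit windows, a stricter score, equal list lengths, the distance, the assignment, the replicate block and leaving out each library.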

Additional observations from a re-analysis of the deposited data

How the results depend on the processing

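With an overlap of 200 bp or with summit windows, no count over a set of genes or at Arntl changed by over 1.5 times, while counts of other single genes did (Npas2 had 2 gained MED24 regions at 200 bp, against 5 with all peaks merged). Gained regions at Arntl were 8 (MED1) and 7 (MED24) with 10000 peaks per library, 12 and 9 with 20000, and 9 for each protein within 20 kb. Gained regions of the 9 other genes were 3 and 5 with 10000 peaks, 5 and 7 with 20000, and 21 for each protein when every region within 100 kb counted. Lost regions of the 10 genes were 2 and 3 with 10000 peaks, 3 (MED1) with 20000, 3 and 4 at a score of 100 or more, 10 and 12 when every region within 100 kb counted, and 12.5 and 13 under the replicate block, which pairs libraries by clone. Under the block, gained regions at Arntl were 20 for each protein and 16.5 (MED1) and 16 (MED24) at the 9 others.

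The results added after seeing the data also moved. Gained regions of the 20 other clock genes were 6 and 2 with 10000 peaks, 8 and 7 with 20000, 48 and 41 when every region within 100 kb counted, and 24 (MED24) under the block. Those of Arntl's neighbours were 3 and 5 with 10000 peaks and 9 and 10 with 20000. The mean rank shift of retained regions for MED1 was 0.851 when every region within 100 kb counted and 2.84 as a median. With 10000 peaks it was -21.2, over the fewer regions retained in the shortened lists and with percentiles ranked anew. For MED24 it was 0.381 with 10000 peaks, 11.3 with 20000, 8.05 within 20 kb, 5.85 when every region within 100 kb counted, 8.98 at a score of 100 or more and 3.81 as a median. Shorter lists leave fewer peaks to call by construction; otherwise the cause was not tested.

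Leaving out each library in turn gave, for MED1 and MED24, 16 to 20 and 15 to 20 gained regions at Arntl, 12 to 14 and 12 to 16 at the 9 others, 6 to 11 and 7 to 11 lost, 20 to 27 and 14 to 24 gained at the 20 other clock genes, 18 to 25 and 18 to 27 at the neighbours, and mean shifts of 4.24 to 14.6 and 9.54 to 15.1. The clone a 0 h library set the highest shift for both proteins. Of 456 counts of single genes under all these settings, 348 stayed within 1.5 times and 108 moved further. A count of 0 that stayed 0 was taken as unchanged.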

Other observations

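Promoter windows of the clock genes that were not printed differed in their motifs. The window at the first Per1 start site held an E-box beginning 166 bases before the start site, a D-box 24 bases before it and a TGACG 246 bases before it. The region over it was called at 2 h in clone b only, at percentile 44.8 for MED1, against 1.17 and 11.7 at 0 h in clones a and b. The Per3 window held D-boxes beginning 205 and 158 bases before the start site, and the region over it was retained for both proteins. Windows of Clock, Npas2 and Cry2 held neither an E-box nor a D-box of these letters.

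Arntl regions called in 1 library alone were all called at 2 h, where the lists were longer. The shares of all regions called in this way are not given here. For MED1, 5 Arntl regions had a peak in 1 of the 2 h libraries and none at 0 h, of which 4 were called in clone b, the longer list, and 0 had a peak in 1 of the 0 h libraries and none at 2 h. For MED24 the first number was 8, of which 5 were called in clone b, and the second was 0. Peaks in both 2 h libraries and 1 of the 0 h libraries occurred in 3 MED1 regions and 1 MED24 region of Arntl. In 1 further MED24 region a peak was called in 1 library of each time. At the 9 other genes, 4 MED1 and 6 MED24 regions had a peak in 1 of the 2 h libraries and none at 0 h, and 7 MED1 and 6 MED24 regions had a peak in 1 of the 0 h libraries and none at 2 h.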
